A study of Mus musculus with 8 samples.

Results

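The genes described here are 31 immediate early and heat shock genes, chosen by name out of 47643 gene identifiers counted. They are 25 transcripts, most of them known for fast induction, and 6 known for induction by heat or protein stress. All 31 had counts and passed the filter on low counts. They were followed in bulk RNA from bone marrow macrophages of wild-type (WT) B6 mice, with every group sharing that genotype and strain. GFP-marked Vk*MYC myeloma cells, a transplantable plasma cell tumour of mice, had been purified on CD138 and injected into the tibia of the tumour-bearing animals, and no further treatment was given. From this marrow, tumour-associated macrophages (TAM) were taken by sorting for high F4/80 and low CD11b, and they were divided by the tumour's GFP. GFP-positive cells are taken as TAM in contact with myeloma (TAM-IC, 2 libraries), and GFP-negative cells as those without contact (TAM-NIC, 2 libraries). Bone marrow macrophages came also from naive mice, which carried no tumour (2 libraries), and 2 further libraries held plasma cells. The study's text names myeloma and polyclonal plasma cells, but the labels do not say which plasma cell library is which. The sources used here do not give the number of animals pooled, their age, or the time and temperature between dissection and lysis.

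As a class, immediate early genes are switched on within minutes of a signal at the cell surface. This needs only factors that the cell already holds and no new protein synthesis, and their RNA is short-lived. Not every member grouped here follows this, as Jund is usually expressed without stimulation and Fosl2 is slower. Serum response factor with its ELK partners, and CREB, carry kinase signals to many of their promoters. Heat shock genes answer unfolded protein through heat shock factor 1, and both classes are also known to respond to the dissociation and sorting of cells. In macrophages, adhesion, growth factors and microbial products induce them.

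The macrophage libraries held between 28887725 and 46873056 counts, so that a count of 0 allows up to 0.104 CPM (counts scaled to the library total) in the shallowest of them. All 7 markers of macrophages were detected in each macrophage library. Their summed level was 19073 and 25969 CPM in TAM-IC, 12902 and 7428 CPM in TAM-NIC, and 14623 and 16757 CPM in naive macrophages. Values are for replicates 1 and 2 in this order, here and throughout. Lyz2 was the largest part of this sum in each library, with 15163 and 19978 CPM, 6006 and 4187 CPM, and 9423 and 13761 CPM in the same groups. The 7 genes did not rank the libraries alike. Adgre1 (1223 CPM) and Cd68 (1663 CPM) were highest in TAM-NIC replicate 1, while Csf1r (4368 CPM) was highest in TAM-IC replicate 2. Markers of other marrow cells were present as well. The 8 neutrophil genes summed to 50190 and 28107 CPM in TAM-IC, 9126 and 17702 CPM in TAM-NIC, and 47507 and 74019 CPM in naive macrophages. These sums exceeded the macrophage marker sum in each library except TAM-NIC replicate 1. Both TAM-NIC libraries lay below those of the other groups, and the part of this in the comparisons of groups was not tested. Replicate 2 of TAM-NIC stood apart, with 9.13% of its counts on immunoglobulin genes and 30190 CPM summed over 11 plasma cell markers, against at most 0.632% and 4031 CPM in the other macrophage libraries. It also had the highest mitochondrial share of counts, 0.876% against 0.142% to 0.353%, and the highest sum over 5 megakaryocyte and platelet markers, 225 CPM against 43.0 to 106 CPM. The part of these in its member values was not tested. Log2 CPM correlated at 0.967 across genes between the libraries of TAM-IC, 0.879 between those of TAM-NIC and 0.970 between those of naive macrophages. The labels number the TAM libraries by mouse. The Y-linked gene Ddx3y, however, stood at 88.4 CPM in TAM-IC replicate 2 and 0.258 CPM in TAM-NIC replicate 2. Xist stood at 0 and 40.4 CPM, so the libraries numbered mouse 2 do not hold cells of 1 animal. In all macrophage libraries but TAM-IC replicate 2, Ddx3y was at most 0.258 CPM and Xist at least 17.5 CPM. The replicates of TAM-IC thus differed in sex-linked genes, and the part of this in the gap between their member values was not tested. Nothing in the labels says how the naive libraries were separated, and p-values measure the spread between these libraries.

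The summed level of the immediate early genes was higher in each TAM library than in either naive library, by 2.42 times even between the lowest TAM library and the higher naive one. The 25 genes together held 7618 and 23232 CPM in TAM-IC, 5268 and 31299 CPM in TAM-NIC, and 1788 and 2178 CPM in naive macrophages. Replicate 2 exceeded replicate 1 by 3.05 times in TAM-IC and by 5.94 times in TAM-NIC, against 1.22 times in naive macrophages. The 6 heat shock genes held 378 and 408 CPM in TAM-IC, 383 and 1653 CPM in TAM-NIC, and 238 and 321 CPM in naive macrophages. Their sum was therefore nearly level between TAM libraries except in replicate 2 of TAM-NIC. All 31 genes together accounted for 0.800% and 2.36% of counts in TAM-IC, 0.565% and 3.30% in TAM-NIC, and 0.203% and 0.250% in naive macrophages. In bulk RNA, fewer cells with a transcript and less of it per cell cannot be told apart.

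**Figure D1:**
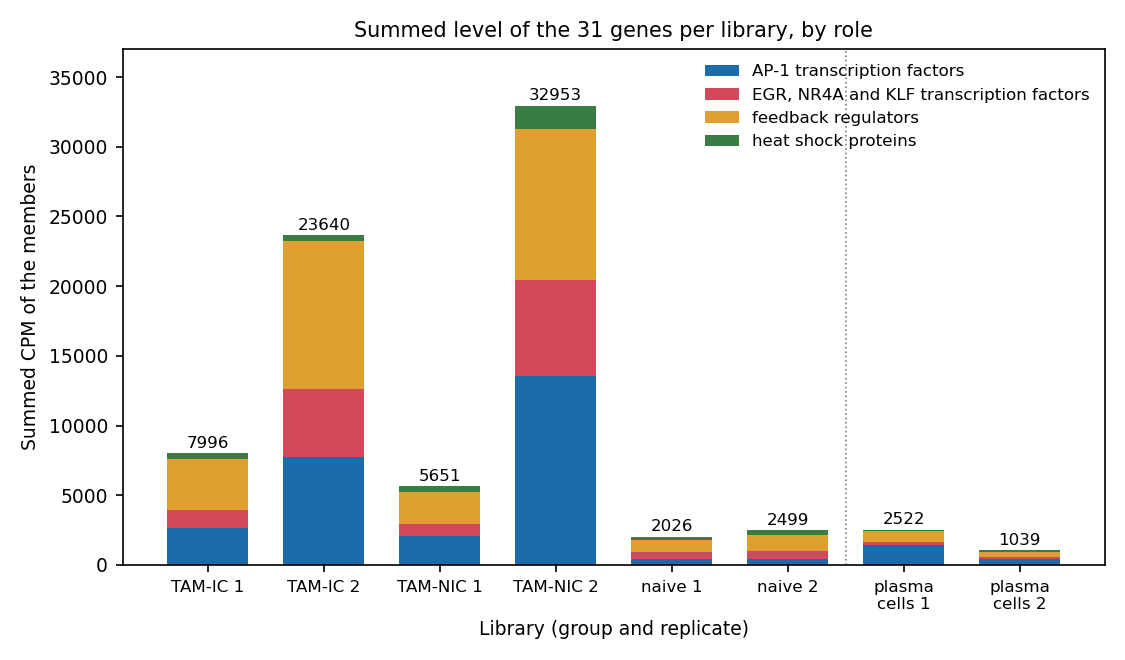
Stacked bars give the summed CPM of the 31 genes in each library, coloured by role, with the total printed above each bar and the plasma cell libraries right of the dotted line. TAM-NIC replicate 2 and TAM-IC replicate 2 hold the highest totals, 32953 and 23640 CPM, and the naive libraries hold 2026 and 2499 CPM.

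Counted gene by gene, 20 of the 31 stood higher in all 4 TAM libraries than in both naive libraries, a pattern found in 8.61% of 12383 genes that averaged at least 1 CPM. They comprised 17 immediate early and 3 heat shock genes. At least 2-fold separation of every TAM library from both naive libraries was seen for 14 members, against 1.2% of genes, and the opposite order, all TAM libraries below both naive libraries, for 0 members, against 16.2% of genes. The 11 genes outside the pattern were Fosb, Fosl1, Fosl2, Egr3, Ier2, Nr4a2, Btg2, Maff, Hsp90aa1, Dnajb1 and Hsph1. The members were picked by name with earlier results of these libraries known, so these counts describe them and carry no test.

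The AP-1 factors, which bind DNA as FOS and JUN dimers, included members high in every TAM library and members low in all macrophage libraries but 1. Fos (ENSMUSG00000021250.13, GRCm38 chromosome 12, 85473890 to 85477273, plus strand), the founding partner of the dimer, had levels of 886 and 2387 CPM in TAM-IC, 903 and 4479 CPM in TAM-NIC, and 50.6 and 61.4 CPM in naive macrophages. Its lowest TAM level was 14.4 times the higher naive level. Jun (chromosome 4, 95049034 to 95052222, minus strand), the other partner, had levels of 421 and 1691 CPM in TAM-IC, 222 and 3030 CPM in TAM-NIC, and 65.2 and 48.5 CPM in naive macrophages. Junb, a JUN family member that often restrains JUN (chromosome 8, 84974484 to 84978718, minus strand), had levels of 966 and 3074 CPM, 614 and 2758 CPM, and 165 and 195 CPM in the same groups. TAM and naive libraries did not overlap for any of these genes, while the TAM groups overlapped each other.

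Jund, the family member usually expressed without stimulation, stood at 210 and 326 CPM in TAM-IC, 207 and 1207 CPM in TAM-NIC, and 95.2 and 84.0 CPM in naive macrophages. Atf3, a stress-induced partner that represses inflammatory genes in macrophages, stood at 99.7 and 198 CPM in TAM-IC, 120 and 1331 CPM in TAM-NIC, and 16.4 and 10.6 CPM in naive macrophages. Each TAM library lay above both naive libraries for this pair of genes, and TAM-NIC replicate 2 lay highest. Fosl2, a slower FOS relative, overlapped among all groups, with 30.2 and 49.6 CPM in TAM-IC, 14.5 and 67.4 CPM in TAM-NIC, and 34.0 and 33.2 CPM in naive macrophages.

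Fosb (chromosome 7, 19302696 to 19310051, minus strand), a close relative of Fos, was under 5 CPM in every macrophage library but 1. It stood at 1.33 and 4.58 CPM in TAM-IC, 4.06 and 565 CPM in TAM-NIC, and 1.96 and 1.45 CPM in naive macrophages. The same library carried 16.1 CPM of Fosl1, against 0.121 to 1.33 CPM in the other macrophage libraries, and 66.8 CPM of Maff, a small MAF protein, against 1.12 to 9.57 CPM. Exons of Fosl1 overlap those of Ccdc85b on the opposite strand over 57.2% of their length and those of Jund overlap the antisense gene Gm11175 over 52.6%. The library kit does not mark strand, so reads of such partners cannot be told apart. Smaller overlaps touch Dusp5 (22.1%), Hspa1a (19.0%), Junb (7.52%), Jun (7.28%) and Zfp36 (3.60%).

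**Figure D2:**
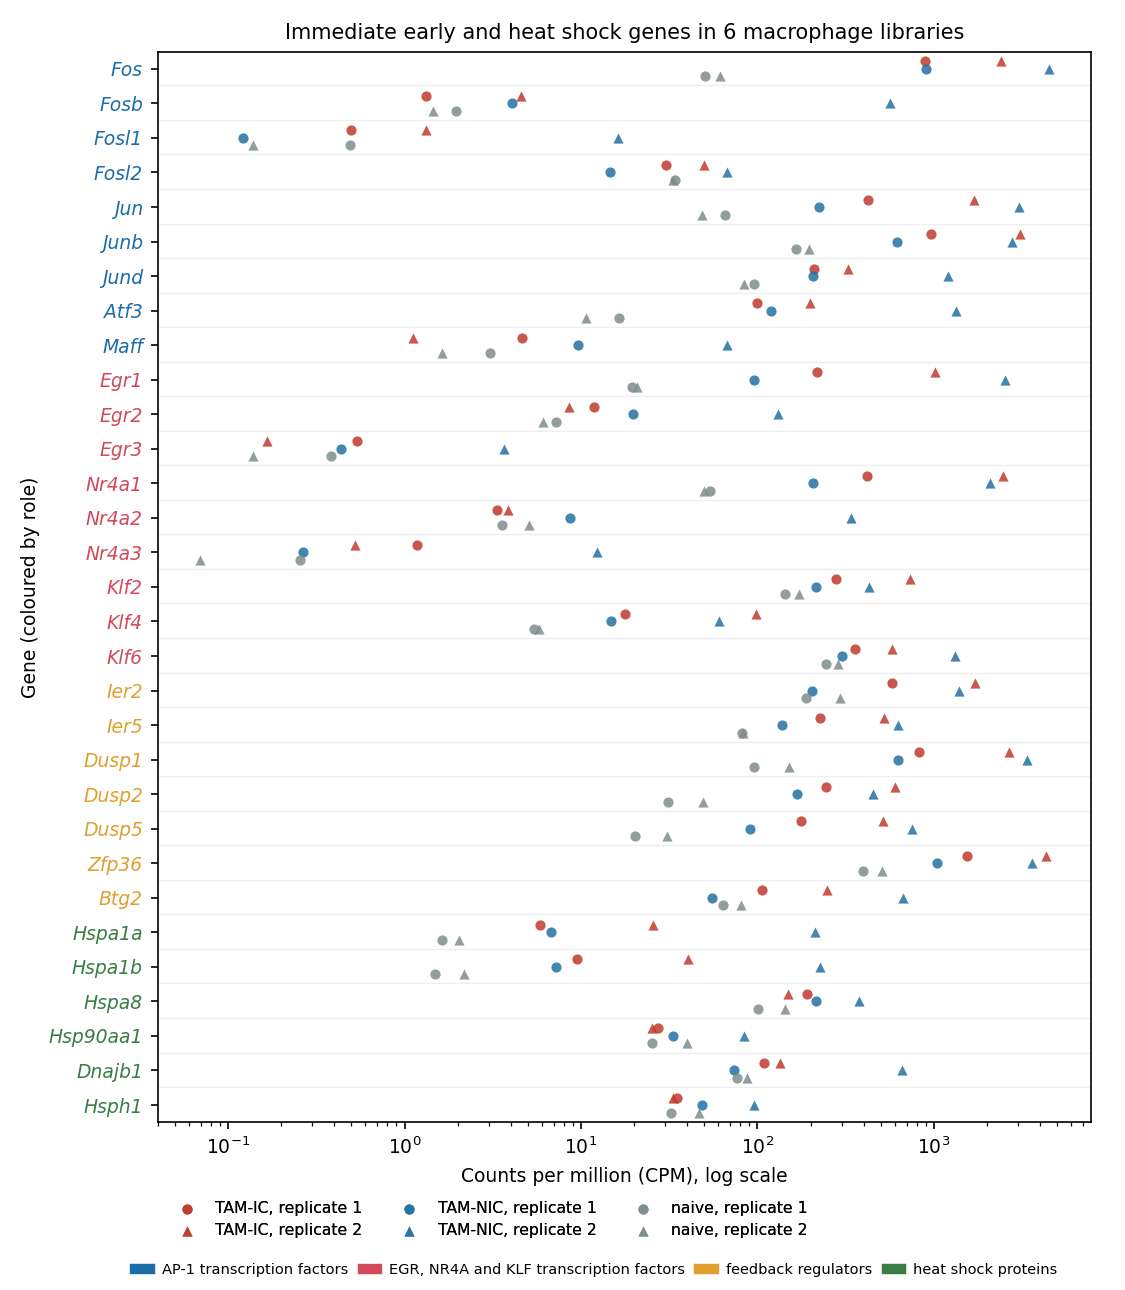
Each row is 1 gene and each point 1 macrophage library, placed by its CPM on a log axis, with circles for replicate 1 and triangles for replicate 2. For Fos, Jun, Dusp1 and Nr4a1 all TAM points lie right of both naive points, while for Fosb, Nr4a2 and Nr4a3 a single TAM-NIC triangle lies far right of the rest.

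Among the EGR zinc finger factors, which bind GC-rich sites at many induced promoters, Egr1 had the widest range. It stood at 217 and 1021 CPM in TAM-IC, 95.6 and 2523 CPM in TAM-NIC, and 19.4 and 20.8 CPM in naive macrophages. Egr2 (chromosome 10, 67535475 to 67542188, plus strand), known in macrophages for roles in differentiation and alternative activation, had levels of 11.8 and 8.54 CPM, 19.7 and 131 CPM, and 7.23 and 6.09 CPM in the same groups. Its TAM-IC libraries lay between the naive libraries and both libraries of TAM-NIC, without overlap. Egr3 stayed under 1 CPM in every macrophage library except TAM-NIC replicate 2, with 3.67 CPM.

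The NR4A orphan nuclear receptors, which limit inflammatory gene expression in macrophages, differed from one another. Nr4a1 (chromosome 15, 101254269 to 101274795, plus strand) had levels of 417 and 2473 CPM in TAM-IC, 206 and 2071 CPM in TAM-NIC, and 53.7 and 49.5 CPM in naive macrophages, so all TAM libraries lay above the naive ones. Nr4a2 (chromosome 2, 57106830 to 57124003, minus strand) had levels of 3.33 and 3.84 CPM in TAM-IC, 8.70 and 341 CPM in TAM-NIC, and 3.58 and 5.05 CPM in naive macrophages. Nr4a3 reached 12.3 CPM in TAM-NIC replicate 2 and between 0.0692 and 1.17 CPM elsewhere. Nr4a1 was therefore shared by both TAM groups, while high Nr4a2 and Nr4a3 levels were seen in 1 library.

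Of the KLF factors, Klf2, which keeps macrophages quiescent, stood at 279 and 731 CPM in TAM-IC, 215 and 430 CPM in TAM-NIC, and 144 and 171 CPM in naive macrophages. Klf4, linked to monocyte differentiation and alternative activation, stood at 17.9 and 98.5 CPM, 14.7 and 60.4 CPM, and 5.42 and 5.82 CPM in the same groups. Klf6, which promotes inflammatory expression, stood at 357 and 580 CPM, 300 and 1321 CPM, and 244 and 285 CPM. All 3 had each TAM library above both naive libraries, with the smallest gap for Klf6.

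The genes grouped here as feedback regulators, which are DUSP phosphatases and Zfp36 together with Ier2, Ier5 and Btg2, mostly stood high in both TAM groups. Dusp1 (chromosome 17, 26505590 to 26562128, minus strand), a phosphatase of p38 and JNK, had levels of 822 and 2651 CPM in TAM-IC, 624 and 3386 CPM in TAM-NIC, and 95.1 and 151 CPM in naive macrophages. Dusp2 (chromosome 2, 127336159 to 127338376, plus strand), a nuclear phosphatase of MAP kinases, had levels of 244 and 605 CPM, 168 and 450 CPM, and 31.3 and 48.8 CPM in the same groups. Dusp5, a phosphatase of ERK (chromosome 19, 53529109 to 53542431, plus strand), had levels of 177 and 516 CPM, 90.4 and 752 CPM, and 20.2 and 30.8 CPM. For these 3 phosphatases every TAM library exceeded both naive libraries, and the TAM groups overlapped.

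Zfp36, which encodes tristetraprolin and speeds the decay of cytokine mRNA, stood at 1539 and 4337 CPM in TAM-IC, 1035 and 3605 CPM in TAM-NIC, and 398 and 510 CPM in naive macrophages. Ier5, a regulator of heat shock factor 1, stood at 227 and 521 CPM, 137 and 626 CPM, and 81.7 and 83.1 CPM in the same groups. Ier2, a nuclear protein induced with the AP-1 genes, stood at 579 and 1707 CPM, 204 and 1395 CPM, and 188 and 294 CPM. Replicate 1 of TAM-NIC lay between the naive libraries for Ier2. Btg2, an antiproliferative gene, stood at 106 and 246 CPM in TAM-IC, 55.0 and 671 CPM in TAM-NIC, and 63.9 and 81.0 CPM in naive macrophages, and the same library lay below both naive libraries.

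Compared between genes per kilobase of exon, the mean levels were led in TAM-IC by Junb (878 CPM per kb), Zfp36 (847), Ier2 (751), Fos (696) and Dusp1 (524). In TAM-NIC Fos led with 1144 CPM per kb, ahead of Junb (733), Zfp36 (669) and Dusp1 (605). In naive macrophages Ier2 (158), Zfp36 (131), Klf2 (85.4) and Junb (78.3) led. Given the ranges between replicates, neighbours in these orders do not differ beyond their spread in the TAM groups.

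Promoter sequences were read for the members with a RefSeq window, 25 of 31, each covering 250 bases before to 50 after an annotated start (GRCm38.p6). A gene was counted where any of its windows held the motif, and shares are of the 27025 genes with a RefSeq window. The CArG box, the site bound by serum response factor, was found for Dusp5, Egr2 and Zfp36, 3 of 21 immediate early genes with a window, against 1.81%. The cyclic AMP response element TGACGTCA was found for Btg2, Dusp1 and Maff, against 2.03% of genes, and the AP-1 site TGANTCA for 0 of the 25 members, against 8.97%. TATAAA was found for Fos, Junb and Nr4a2, against 15.7%. All motifs were searched on both strands, and a match or its absence in this window says nothing of binding. The windows of Dusp5, Egr2 (at 1 of several annotated starts) and Dusp1 are shown as examples with a CArG box or a cyclic AMP response element. The TAM libraries of these genes all lay above both naive libraries. Zfp36, with a CArG box and the same order of libraries, is not shown. Capitals mark the CArG boxes of Dusp5 and Egr2 and the cyclic AMP response element of Dusp1. Dusp5 holds 2 CArG boxes, starting 82 and 72 bases before the start, that of Egr2 starts 72 bases before and the Dusp1 element 143 bases before.
Dusp5, chr19:53528895-53529194, plus strand: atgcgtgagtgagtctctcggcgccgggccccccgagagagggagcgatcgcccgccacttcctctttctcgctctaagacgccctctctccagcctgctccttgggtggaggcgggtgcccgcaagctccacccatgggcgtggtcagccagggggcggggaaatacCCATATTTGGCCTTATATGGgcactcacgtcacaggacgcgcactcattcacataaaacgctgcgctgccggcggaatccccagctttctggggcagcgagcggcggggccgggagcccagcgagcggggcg
Egr2, chr10:67537619-67537918, plus strand: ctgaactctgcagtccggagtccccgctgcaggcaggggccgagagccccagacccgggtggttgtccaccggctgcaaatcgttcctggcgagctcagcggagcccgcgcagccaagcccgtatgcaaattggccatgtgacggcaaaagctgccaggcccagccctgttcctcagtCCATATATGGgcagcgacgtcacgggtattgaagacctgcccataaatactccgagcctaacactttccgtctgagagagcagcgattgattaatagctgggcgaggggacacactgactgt
Dusp1, chr17:26508423-26508722, minus strand: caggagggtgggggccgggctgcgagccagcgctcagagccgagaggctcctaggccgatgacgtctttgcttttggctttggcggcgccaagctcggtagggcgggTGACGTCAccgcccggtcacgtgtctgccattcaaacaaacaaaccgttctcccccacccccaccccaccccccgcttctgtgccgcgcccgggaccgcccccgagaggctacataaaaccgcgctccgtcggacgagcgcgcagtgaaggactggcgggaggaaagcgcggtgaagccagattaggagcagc

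Among the heat shock genes, the inducible HSP70 pair stood higher in every TAM library than in naive macrophages. Hspa1a (ENSMUSG00000091971.3, chromosome 17, 34969190 to 34972156, minus strand) and Hspa1b (ENSMUSG00000090877.3, chromosome 17, 34956436 to 34959238, minus strand) encode the inducible HSP70 chaperone. Hspa1a stood at 5.82 and 25.6 CPM in TAM-IC, 6.72 and 211 CPM in TAM-NIC, and 1.62 and 2.04 CPM in naive macrophages. Hspa1b stood at 9.51 and 40.2 CPM, 7.21 and 225 CPM, and 1.49 and 2.18 CPM in the same groups. Every TAM library lay above both naive libraries for both genes. Their longest open reading frames are 99.4% identical, so reads can be split between them. The counts of members and of motifs given here hold them as 2 genes, although their values are not independent.

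The other chaperones lay closer to their naive levels than that pair. Hspa8, the constitutive HSP70, stood at 191 and 149 CPM in TAM-IC, 214 and 378 CPM in TAM-NIC, and 100 and 143 CPM in naive macrophages. Dnajb1, an HSP40 partner of HSP70, stood at 109 and 134 CPM, 73.3 and 659 CPM, and 77.0 and 87.2 CPM in the same groups. Hsp90aa1, the inducible HSP90, stood at 27.2 and 25.3 CPM, 33.2 and 84.4 CPM, and 25.3 and 40.0 CPM. Hsph1, an exchange factor of HSP70, stood at 35.0 and 33.4 CPM, 48.2 and 95.3 CPM, and 32.6 and 46.7 CPM. For Dnajb1, Hsp90aa1 and Hsph1 at least 1 TAM library lay below the higher naive library, and TAM-NIC replicate 2 lay highest for all 6 heat shock genes.

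Heat shock elements, the binding sites of heat shock factor 1, were searched as 2 alternating units (GAANNTTC or TTCNNGAA) and as 3 units, the same extended by NNGAA or NNTTC, which holds the shorter form. The longer form was found for Hsph1, 1 of 4 heat shock genes with a window, and for 0.662% of all genes with a window. The shorter form was found for Hspa1a, Hspa1b and Hsph1 and for 3 of 21 immediate early genes (Jun, Egr2 and Fosl2), against 17% of all genes with a window. The windows of Hspa1a and Hspa1b share 296 of 300 bases and carry the element 104 bases before the start, and that of Hsph1, whose level overlapped between TAM-IC and naive macrophages, is shown for contrast. Capitals mark matches to either form.
Hspa1a, chr17:34972107-34972406, minus strand: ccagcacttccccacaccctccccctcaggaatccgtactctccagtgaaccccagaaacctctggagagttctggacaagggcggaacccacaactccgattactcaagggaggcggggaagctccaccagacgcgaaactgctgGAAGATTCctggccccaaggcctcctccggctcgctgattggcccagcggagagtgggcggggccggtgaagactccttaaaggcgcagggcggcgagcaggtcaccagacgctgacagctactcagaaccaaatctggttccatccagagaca
Hspa1b, chr17:34959189-34959488, minus strand: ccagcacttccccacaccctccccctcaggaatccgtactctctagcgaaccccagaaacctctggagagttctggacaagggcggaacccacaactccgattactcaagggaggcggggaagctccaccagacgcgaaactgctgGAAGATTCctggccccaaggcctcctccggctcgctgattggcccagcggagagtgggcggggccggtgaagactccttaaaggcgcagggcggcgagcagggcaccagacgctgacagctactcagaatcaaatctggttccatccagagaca
Hsph1, chr5:149636266-149636565, minus strand: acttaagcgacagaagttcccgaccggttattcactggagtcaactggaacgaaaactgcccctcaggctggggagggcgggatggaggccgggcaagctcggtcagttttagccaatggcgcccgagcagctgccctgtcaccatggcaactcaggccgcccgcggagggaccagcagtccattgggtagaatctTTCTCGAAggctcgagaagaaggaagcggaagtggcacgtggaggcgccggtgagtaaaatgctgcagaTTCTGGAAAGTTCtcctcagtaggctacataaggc

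TAM-IC were compared with naive macrophages to ask how macrophages of the tumour-bearing marrow that carried myeloma GFP differed from those of healthy marrow. Among the 31 genes Egr1, Fos, Nr4a1 and Jun had the largest log2 fold changes, 5.12, 5.04, 4.99 and 4.39, followed by Dusp1 with 4.0 and by Hspa1b and Dusp5, both with 3.94. All 7 feedback regulators had TAM-IC libraries above both naive libraries, as did 6 of 9 AP-1 factors, 7 of 9 EGR, NR4A and KLF factors and 4 of 6 heat shock genes. That made 24 of 31 members without overlap, against 23.0% of the 15522 genes tested. Log2 fold changes were above 0 for 28 members, all but Nr4a2, Hsph1 and Hsp90aa1 (50.2% of genes had such values), and their median was 2.35, against 0.00 over all genes. By role the median was 1.75 for AP-1 factors, 1.85 for EGR, NR4A and KLF factors, 2.87 for feedback regulators and 0.68 for heat shock genes.

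Markers of macrophage subsets moved with this comparison. All 8 resident marrow macrophage markers were lower in both TAM-IC libraries than in both naive libraries, with none at 0, and summed to 783 and 433 CPM in TAM-IC against 22709 and 10800 CPM in naive macrophages. The monocyte marker Ccr2 stood at 925 and 618 CPM in TAM-IC against 79.7 and 110 CPM in naive macrophages, while the 5 monocyte markers together summed to 2110 and 1311 CPM against 775 and 1287 CPM. The part of either in the members' values was not tested.

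In edgeR's quasi-likelihood test, however, 0 of 31 members passed an adjusted p of 0.05, where 5 of all genes tested (0.0322%) were called higher. At an unadjusted p under 0.05 the count was 15 members higher, against 7.11% of genes, and 0 lower, against 7.51%. DESeq2 called 14 members higher, against 3.05%, and 0 lower, against 4.79%, and limma-voom called 0. The lowest edgeR adjusted p belonged to Dusp2 (3.58 ± 0.69 SE, adjusted p = 0.132, and 4.24e-06 in DESeq2) and Fos (5.04 ± 0.98, adjusted p = 0.132, and 2.16e-08 in DESeq2). Junb had a value of 3.66 ± 0.92 (adjusted p = 0.198), Dusp1 4.0 ± 1.01 (adjusted p = 0.203), Nr4a1 4.99 ± 1.37 (adjusted p = 0.223), Dusp5 3.94 ± 1.09 (adjusted p = 0.223) and Zfp36 2.87 ± 0.81 (adjusted p = 0.227). Klf4 had 3.55 ± 1.00 (adjusted p = 0.228), Jun 4.39 ± 1.34 (adjusted p = 0.251), Atf3 3.63 ± 1.10 (adjusted p = 0.251), Klf2 1.85 ± 0.58 (adjusted p = 0.257) and Egr1 5.12 ± 1.60 (adjusted p = 0.259). Ier5 had 2.35 ± 0.77 (adjusted p = 0.277), Hspa1b 3.94 ± 1.55 (adjusted p = 0.330) and Ier2 2.42 ± 0.98 (adjusted p = 0.338). DESeq2 called these except Ier2.

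One edgeR model held all 6 macrophage libraries, so the spread within TAM-NIC entered this comparison too. With TAM-NIC replicate 2 left out, edgeR called 5 members higher in TAM-IC over naive, namely Fos (5.02, adjusted p = 0.0295), Atf3 (3.59, adjusted p = 0.0322), Dusp2 (3.56, adjusted p = 0.0408), Dusp5 (3.92, adjusted p = 0.0437) and Egr1 (5.10, adjusted p = 0.0479). With TAM-NIC replicate 1 left out it called 6, the spread then coming from TAM-IC and naive macrophages. With replicate 2 of both TAM groups left out, a choice made after the data were seen, the spread came from the naive pair alone and 13 members were called, with a median of 1.39. Leaving out TAM-IC replicate 2 alone also put the median at 1.39, with 0 members called.

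TAM-NIC were compared with the same naive libraries, to ask how GFP-negative macrophages of the tumour-bearing marrow differed from those of healthy marrow. All 31 log2 fold changes were above 0, as for 53.7% of genes, with a median of 3.35 against 0.06 over all genes. Libraries did not overlap for 25 members, all of them higher in TAM-NIC, against 16.6% of genes. The median was 4.75 for AP-1 factors, 3.61 for EGR, NR4A and KLF factors, 2.48 for feedback regulators and 1.85 for heat shock genes. The largest differences, Fosb at 7.48, Egr1 at 6.14, Hspa1b at 6.10 and Hspa1a at 6.01, belonged to genes with wide gaps between the TAM-NIC libraries.

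edgeR again called 0 members and 0 of 15522 genes higher or lower, while 24 members were higher at an unadjusted p under 0.05, against 7.78% of genes, and 0 lower, against 7.39%. DESeq2 called 22 members higher, against 4.36%, and limma-voom called 0. The lowest edgeR adjusted p was 0.219, for Atf3 (5.86 ± 1.22 SE), Fos (5.71 ± 1.01) and Dusp2 (3.08 ± 0.68). Egr2 had 3.61 ± 0.85 (adjusted p = 0.222), Dusp1 4.15 ± 1.02 (adjusted p = 0.224), Hspa8 1.42 ± 0.37 (adjusted p = 0.229), Jund 3.10 ± 0.82 (adjusted p = 0.229), Dusp5 4.16 ± 1.10 (adjusted p = 0.229) and Junb 3.35 ± 0.91 (adjusted p = 0.233). Maff had 4.14 ± 1.12 (adjusted p = 0.233), Egr1 6.14 ± 1.68 (adjusted p = 0.233), Jun 4.95 ± 1.37 (adjusted p = 0.234), Hspa1b 6.10 ± 1.71 (adjusted p = 0.236), Hspa1a 6.01 ± 1.70 (adjusted p = 0.237) and Nr4a2 5.45 ± 1.55 (adjusted p = 0.238). Fosb had 7.48 ± 2.20 (adjusted p = 0.243), Nr4a1 4.58 ± 1.35 (adjusted p = 0.243), Zfp36 2.48 ± 0.79 (adjusted p = 0.253), Ier5 2.33 ± 0.77 (adjusted p = 0.262), Klf4 2.86 ± 0.97 (adjusted p = 0.269) and Nr4a3 5.30 ± 1.81 (adjusted p = 0.270). Hsph1 had 0.99 ± 0.37 (adjusted p = 0.298), Dnajb1 2.27 ± 0.90 (adjusted p = 0.319) and Klf6 1.74 ± 0.70 (adjusted p = 0.322). DESeq2 called these except Hsph1, Dnajb1 and Klf6, and it also called Fosl1.

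Without TAM-NIC replicate 2 the median was 1.38, against 3.35 with it, and edgeR called 1 member, Fos (4.19, adjusted p = 0.0495). Values of Fosb, Nr4a2, Nr4a3 and Dnajb1 stood at 1.41, 1.19, 0.79 and 0.01 without that library. Atf3 stood at 3.31 without it (adjusted p = 0.0524), against 5.86 with it, and Egr1 at 2.42 (adjusted p = 0.164), against 6.14. Without TAM-NIC replicate 1, edgeR called 18 members, but replicate 2, the library with plasma cell transcripts, then stood alone for its group and was assumed to vary like the other groups. That count therefore describes 1 library. With replicate 2 of both TAM groups left out it called 14, with a median of 1.38.

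Between the TAM groups, the comparison of cells in contact with cells not in contact asked what differed with carriage of myeloma GFP, and here the feedback regulators showed no common direction. Their median log2 fold change was 0.02, while it was -1.35 for AP-1 factors, -1.01 for EGR, NR4A and KLF factors and -1.34 for heat shock genes. The median of all 31 members was -0.99, against 0.00 over all genes, and 9 members had values above 0, against 49.9% of genes. Libraries did not overlap for 6 members, all lower in TAM-IC, against 22.3% of genes, and for 0 members higher in TAM-IC, against 24.4%. A share of 6 in 31 members is near the background.

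edgeR called 0 members and 0 of 15522 genes here, with 5 members lower at an unadjusted p under 0.05, against 10% of genes, and 0 higher, against 7.09%. DESeq2 called 4 members lower, Nr4a2, Fosb, Egr2 and Maff, against 6.95%, and 0 higher, against 3.16%, and limma-voom called 0. Nr4a2 had a log2 fold change of -5.56 ± 1.56 (SE, adjusted p = 0.202), Fosb -6.53 ± 2.10 (adjusted p = 0.221), Egr2 -2.85 ± 0.82 (adjusted p = 0.205), Maff -3.70 ± 1.10 (adjusted p = 0.205) and Hsph1 -1.04 ± 0.37 (adjusted p = 0.244). Without TAM-NIC replicate 2 the median of the members turned to 1.31, and Fosb stood at -0.48, Nr4a2 at -1.31 and Egr2 at -0.99. With replicate 2 of both TAM groups left out the median turned to 0.34. The direction of the median between the TAM groups thus rested on that library.

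**Figure D3:**
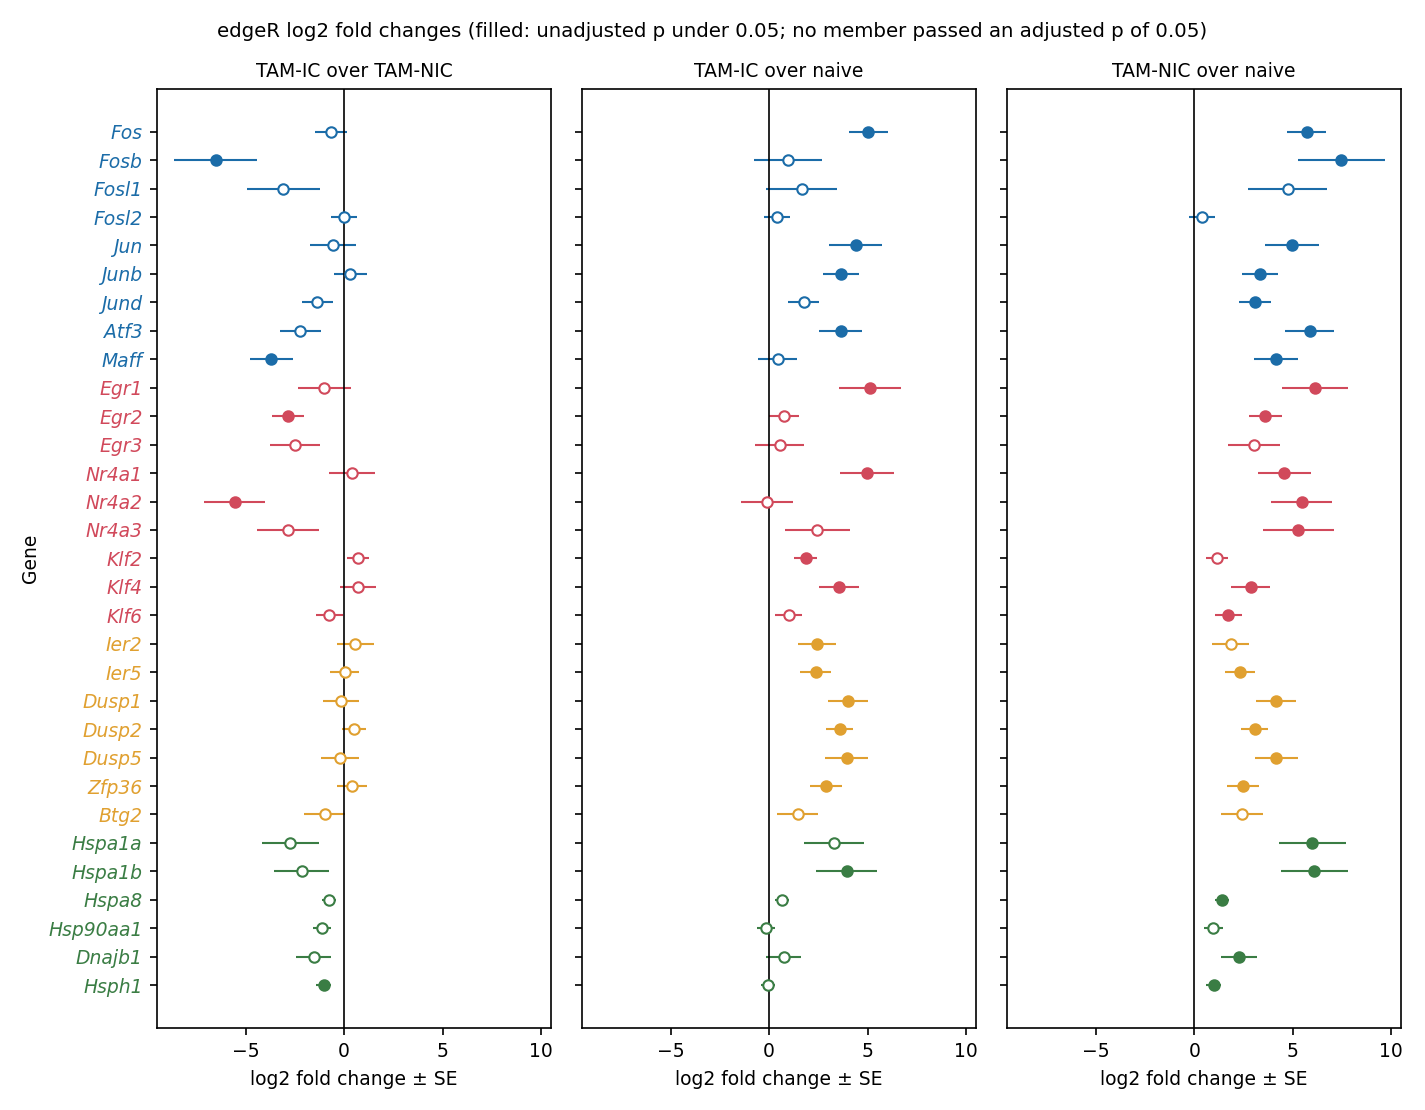
Points give edgeR log2 fold changes with bars of 1 SE for the 31 genes in the 3 comparisons, coloured by role, and filled points have an unadjusted p under 0.05. Filled points number 5 between the TAM groups, 15 for TAM-IC over naive and 24 for TAM-NIC over naive, and both comparisons with naive macrophages use the same naive libraries.

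The spread between replicates had an order of its own. In TAM-NIC replicate 2 exceeded replicate 1 for all 31 members, against 51.9% of genes, and by at least 2-fold for 29, against 19.9%, with Hspa8 and Hsph1 as the exceptions. In TAM-IC replicate 2 exceeded replicate 1 for 24 members, against 45.2% of genes, and by at least 2-fold for 18, against 4.72%. The naive libraries differed by at least 2-fold for 3 members, Fosl1, Egr3 and Nr4a3, all under 1 CPM in both, against 8.69% of genes. The median ratio of replicate 2 over replicate 1 was 2.62 for immediate early and 1.09 for heat shock genes in TAM-IC, 6.83 and 5.77 in TAM-NIC, and 1.07 and 1.43 in naive macrophages. Individual ratios ran from 0.240 to 5.94 in TAM-IC and from 1.76 to 139 in TAM-NIC.

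A total of 10 members stood at least 5 times higher in TAM-NIC replicate 2 than in every other macrophage library, against 2.69% of genes. They were Fosb, Fosl1, Egr2, Egr3, Atf3, Nr4a2, Nr4a3, Maff, Hspa1a and Hspa1b, and the 5-fold limit was chosen after their values were seen. The highest of the 6 libraries was TAM-NIC replicate 2 for 24 members, against 23.1% of genes, and TAM-IC replicate 2 for 7, against 17.9%. Those 7 were Junb, Ier2, Dusp2, Nr4a1, Zfp36, Klf2 and Klf4. Of the 11 plasma cell markers, all but Mzb1 and Ighm were also highest in TAM-NIC replicate 2 among macrophage libraries. In that library Mzb1 lay below both naive libraries, and Ighm (735 CPM) was at its lowest among macrophage libraries. Irf4 (260 CPM) and Prdm1 (220 CPM) exceeded both plasma cell libraries there (109 and 64.7 CPM, and 84.8 and 44.6 CPM). Sdc1 lay between the plasma cell libraries, and the other markers lay below both. Immunoglobulin reads lower the CPM of other genes in plasma cells, as given below. In TAM-IC the markers summed to 1924 and 2000 CPM, mostly from Ighm (970 and 993 CPM) and Xbp1 (517 and 566 CPM). Single markers went both ways between these replicates, with Jchain at 23.5 and 54.6 CPM and Slamf7 at 117 and 29.5 CPM. The part of plasma cell transcripts in the members' levels was not tested in either group.

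**Figure D4:**
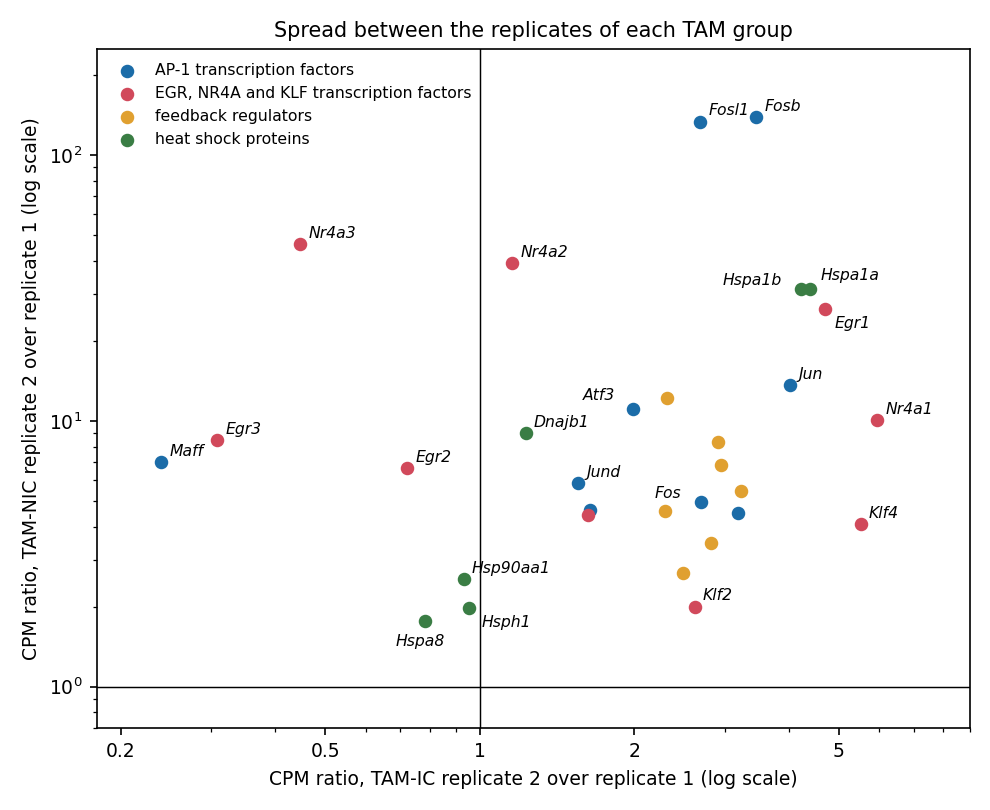
Each point is 1 gene, placed by its CPM ratio of replicate 2 over replicate 1 in TAM-IC (horizontal, log scale) and in TAM-NIC (vertical, log scale), coloured by role, with lines at a ratio of 1. All 31 points lie above the horizontal line and 24 lie right of the vertical line, and Fosb reaches a ratio of 139.

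The plasma cell libraries were counted in a separate table, with no test across tables. Their CPM was lower for each member than that of the library with the plasma cell transcripts. Immunoglobulin genes took 67.3% and 70.4% of counts in the plasma cell libraries, against 9.13% in TAM-NIC replicate 2 and at most 0.632% in the other macrophage libraries. This lowers the CPM of every other gene in plasma cells, so a lower CPM there need not mean less RNA of that gene. All 31 members stood lower in both plasma cell libraries than in TAM-NIC replicate 2. The immediate early genes summed to 2435 and 953 CPM there and the heat shock genes to 86.3 and 86.1 CPM. Fosb stood at 12.8 and 5.84 CPM, Nr4a2 at 1.61 and 2.01 CPM, Atf3 at 2.45 and 2.89 CPM and Hspa1a at 1.03 and 1.10 CPM in plasma cells. Only Fos, Fosb, Jund and Egr1 exceeded both naive libraries in both plasma cell libraries, and 21 members lay below both naive libraries. Between the plasma cell libraries, Fos stood at 697 and 169 CPM, Jun at 359 and 64.8 CPM and Dusp1 at 181 and 25.5 CPM, and 12 members were at least 2 times higher in replicate 1. Whether plasma cells, another cell type or the handling of the sample took part in the levels of TAM-NIC replicate 2 was not tested.

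A wider list of 55 further immediate early and fast response genes, 54 of them tested, had medians in the same directions, with edgeR calling 0 in each comparison. The median was 1.33 for TAM-IC over naive, with 13 genes higher and 1 lower at an unadjusted p under 0.05 (against 7.11% and 7.51% of all genes), and 10 and 1 called by DESeq2 (against 3.05% and 4.79%). Socs3, the inhibitor of interleukin 6 receptor signalling, stood at 162 and 567 CPM in TAM-IC and 12.5 and 15.3 CPM in naive macrophages (4.89 ± 0.77 SE, edgeR adjusted p = 0.0902). Rgs1, a brake on chemokine receptors, stood at 215 and 119 CPM against 22.4 and 14.3 CPM (3.33 ± 0.54, adjusted p = 0.0927). Cebpb, a C/EBP factor of myeloid activation, stood at 757 and 2775 CPM against 158 and 169 CPM (3.61 ± 0.76, adjusted p = 0.152), and Klf10 at 249 and 486 CPM against 79.2 and 97.4 CPM (2.22 ± 0.41, adjusted p = 0.121). All 4 were called by DESeq2, and none of their libraries overlapped between these groups.

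For TAM-NIC over naive the list's median was 2.03, with 32 genes higher and 2 lower at an unadjusted p under 0.05 (against 7.78% and 7.39% of all genes), and 23 and 2 called by DESeq2 (against 4.36% and 3.67%). Rgs1 stood at 437 and 962 CPM in TAM-NIC (5.38 ± 0.59, edgeR adjusted p = 0.183). The matricellular genes Ccn1 and Ccn2, targets of serum response factor and YAP, stood at 2.49 and 18.7 CPM and at 2.01 and 12.6 CPM in TAM-NIC. In naive macrophages Ccn1 had 0 counts in both libraries and Ccn2 0 and 0.0346 CPM. In TAM-IC Ccn1 stood at 0.135 and 0.0712 CPM and Ccn2 at 0.0450 and 0.0949 CPM, at or near the level that a count of 0 allows. Cebpd, another C/EBP factor, had the opposite sign, with 52.8 and 68.5 CPM in TAM-NIC against 180 and 249 CPM in naive macrophages (-1.69 ± 0.28, adjusted p = 0.219).

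Between the TAM groups the list's median was -0.76, with 6 genes higher and 13 lower at an unadjusted p under 0.05 (against 7.09% and 10% of all genes), and 3 and 10 called by DESeq2 (against 3.16% and 6.95%). The counts of higher genes lie near these shares. Cebpd stood at 156 and 159 CPM in TAM-IC and 52.8 and 68.5 CPM in TAM-NIC (1.40 ± 0.28, edgeR adjusted p = 0.151). Unlike Fosb or Nr4a2, it was close between replicates in both TAM groups. Between the TAM groups, a sum over 8 resident marrow macrophage markers lay in the opposite direction to Cebpd, at 783 and 433 CPM in TAM-IC and 9614 and 11460 CPM in TAM-NIC. In naive macrophages both were high, with 22709 and 10800 CPM of these markers and 180 and 249 CPM of Cebpd. The 8 neutrophil markers were, as a sum and like Cebpd, lowest in TAM-NIC. They summed to 50190 and 28107 CPM in TAM-IC, 9126 and 17702 CPM in TAM-NIC, and 47507 and 74019 CPM in naive macrophages. Singly, Elane and Mpo did not keep this order. Mpo stood at 2495 and 818 CPM in TAM-IC and 1536 and 966 CPM in TAM-NIC. The part of either marker set in the Cebpd values was not tested.

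The kinases and factors upstream of immediate early genes, 27 in all, had medians nearer to those of all genes, 0.19 between the TAM groups, 0.25 for TAM-IC over naive and 0.04 for TAM-NIC over naive. edgeR called 0 of them in each comparison. At an unadjusted p under 0.05 it had 5 higher and 1 lower, 5 higher, and 5 higher and 3 lower, and DESeq2 called 4 higher and 1 lower, 3 higher, and 2 higher and 1 lower in the same order. Over all genes the unadjusted shares were 7.09%, 7.11% and 7.78% higher and 10%, 7.51% and 7.39% lower, and those of DESeq2 were 3.16%, 3.05% and 4.36% higher and 6.95%, 4.79% and 3.67% lower. Mef2a, a MADS-box factor, stood at 233 and 372 CPM in TAM-IC, 234 and 184 CPM in TAM-NIC, and 86.9 and 81.9 CPM in naive macrophages (2.00 ± 0.35 SE for TAM-IC over naive, edgeR adjusted p = 0.109, and 1.45 ± 0.34 for TAM-NIC, adjusted p = 0.222). Elk3, a partner of serum response factor, stood at 67.4 and 108 CPM, 70.3 and 30.8 CPM, and 24.5 and 19.4 CPM in the same groups. Mapk3, which encodes ERK1, stood at 143 and 180 CPM in TAM-IC and 79.4 and 67.9 CPM in TAM-NIC (1.15 ± 0.28, adjusted p = 0.185). Mrtfa, a coactivator of serum response factor, stood at 199 and 198 CPM in TAM-IC, 90.5 and 78.6 CPM in TAM-NIC, and 209 and 255 CPM in naive macrophages (1.24 ± 0.26 between the TAM groups, adjusted p = 0.157). Low Mrtfa was thus seen in both libraries of TAM-NIC. Map2k1, which encodes the ERK kinase MEK1, had 1.16 ± 0.35 between the TAM groups (adjusted p = 0.207), and Mapkapk2, a kinase activated by p38, 1.10 ± 0.31 for TAM-IC over naive (adjusted p = 0.226). Crem, a CREB family gene, was highest in TAM-NIC replicate 2, with 75.2 CPM against 7.29 to 14.3 CPM in the other macrophage libraries.

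Other chaperones and heat shock factor targets, 35 tested of 37 listed, had medians of -0.15 between the TAM groups, 0.04 for TAM-IC over naive and 0.26 for TAM-NIC over naive, with 0 called by edgeR. At an unadjusted p under 0.05 it had 6 lower, 3 higher and 6 higher, and DESeq2 called 5 lower, 2 higher and 4 higher, in the same order. The matching shares of all genes were 10% lower, 7.11% higher and 7.78% higher at the unadjusted p, and 6.95%, 3.05% and 4.36% in DESeq2, so the 3 genes higher in TAM-IC over naive are near the background. Bag3, a co-chaperone induced by heat shock factor 1, stood at 32.8 and 80.1 CPM in TAM-IC, 39.1 and 62.9 CPM in TAM-NIC, and 12.7 and 15.1 CPM in naive macrophages (2.20 ± 0.50 SE for TAM-IC over naive, edgeR adjusted p = 0.172, and 2.01 ± 0.50 for TAM-NIC, adjusted p = 0.224). DESeq2 called Bag3 in both of these comparisons. Cryab, a small heat shock protein, stood at 2.83 and 1.52 CPM, 2.51 and 2.42 CPM, and 0.149 and 0.450 CPM in the same groups. All TAM libraries lay above both naive libraries for both of these genes. Serpinh1, a collagen chaperone, stood at 1.08 and 0.261 CPM in TAM-IC, 7.30 and 6.83 CPM in TAM-NIC, and 1.69 and 0.865 CPM in naive macrophages (-3.39 ± 0.84 between the TAM groups, adjusted p = 0.185). The mitochondrial HSP70 gene Hspa9 had -0.76 ± 0.27 in the same comparison (adjusted p = 0.244).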

How the data were processed

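The deposited values are whole-number counts per gene, in 1 table of the 6 macrophage libraries and 1 of the 2 plasma cell libraries. Per the labels' protocols the kit was SMART-Seq v4, which does not mark strand. STAR, featureCounts, DESeq2 1.26, mm10 and GRCm38 are named in the submitters' processing notes, without a role. The annotation release, strand setting and handling of multimapping reads are not given there. Every column was matched to a sample. GENCODE M21 matched 47224 of 47643 macrophage identifiers and is the source of gene names and coordinates, which count from 1.

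The members and lists were chosen with earlier results of these data known. CPM values use the library total. One edgeR 4.0.16 quasi-likelihood model (R 4.3.3, TMM scaling, filterByExpr with minimum count 10 and minimum total count 15, default quasi-dispersion) was fitted to the 6 macrophage libraries, with 15522 genes and 3 residual degrees of freedom left. The calling threshold was an adjusted p (Benjamini-Hochberg, across all tested genes) of 0.05. The scripts were tested on simulated data. Log2 fold changes are given with SE for members with an unadjusted p under 0.05, and up to 4 genes per wider list by smallest p. Some genes that this rule names are not reported here. Alternatives were DESeq2 1.42.0, limma-voom 3.58.1, RLE scaling, other filters, bias-adjusted quasi-dispersions, immunoglobulin genes left out, Hspa1a and Hspa1b summed, a replicate block and each library left out. The labels number TAM libraries by mouse, and same-numbered TAM libraries had deviations from their group means that correlated at 0.152. Limits from counts of 0 cover counting error only, because reads lack molecular identifiers. Promoter windows are from RefSeq, and Python 3.11.15 with Biopython 1.88 ran the other steps.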

Additional observations from a re-analysis of the deposited data

How the results depend on the processing

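With 2 libraries per group and 3 residual degrees of freedom, single genes were called or not according to the test, the filter on low counts and the libraries kept. Alternatives were followed for 44 single-gene fold changes of members, those with an unadjusted p under 0.05 in the main fit. All 701 values under alternatives kept their sign. As these fold changes were selected by that p and the alternatives share libraries, this says little of the other members. The median of all members between the TAM groups did change sign, as given below. Calls numbered 39 by DESeq2, 42 without a filter on low counts and 1 with the replicate block. The cause of the differences between settings was not tested.

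For TAM-IC over TAM-NIC, 0 genes were called, against 1569 by DESeq2, 1871 without a filter, 22 with bias-adjusted quasi-dispersions, 59 with the replicate block, 0 to 1510 when leaving out each library and 8 without replicate 2 of both TAM groups, an alternative added after the data were seen. Members called were 0, against 4 by DESeq2, 10 without a filter and 0 to 11 when leaving out each library. The median of the members was -0.99, against -0.48 by limma-voom, -0.45 with the replicate block, -1.58 to 1.31 when leaving out each library, and 0.34 without replicate 2 of both groups.

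For TAM-IC over naive, 34 genes were called, against 1217 by DESeq2, 0 by limma-voom, 22 with RLE size factors, 1437 without a filter, 56 with bias-adjusted quasi-dispersions, 57 with the replicate block, 20 without immunoglobulin genes, 0 to 534 when leaving out each library and 715 without replicate 2 of both TAM groups. Members called were 0, against 14 by DESeq2, 17 without a filter, 1 with the replicate block (Dusp2, 3.44, adjusted p = 0.0462), 0 to 6 when leaving out each library and 13 without both. The median was 2.35, against 1.39 (without TAM-IC replicate 2) to 2.41 when leaving out each library and 1.39 without both.

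For TAM-NIC over naive, 0 genes were called, against 1247 by DESeq2, 1548 without a filter, 0 to 477 when leaving out each library and 1552 without replicate 2 of both groups. Members called were 0, against 22, 26, 0 to 18 and 14 under those settings. The median was 3.35, against 1.38 to 4.01 when leaving out each library and 1.38 without both. By Xist and Ddx3y the number mouse 2 does not stand for 1 animal, and for mouse 1 this was not settled, so the replicate block is given as an alternative. Levels under 0.104 CPM are at the limit of depth in the shallowest library.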
